A study of Mus musculus with 12 samples.

Results

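The 7 genes described here are Gars, the gene that carries the mutation in these mice, and 6 genes whose products sense or rescue ribosomes that have stalled: Gtpbp1, Gtpbp2, Hbs1l, Pelo, Zfp598 and Edf1. They were chosen by name, all 7 were found once each among the 38924 genes of the deposited tables, and all 7 passed the filter on low counts that left 17189 genes. Spinal cord RNA was sequenced from 12 mice aged 8 weeks on a mixed B6J;FVB background. Of these, 6 were heterozygous for the delETAQ allele of Gars, labelled ETAQ+/-, and 6 were wild type controls, labelled ETAQ+/+ and called WT in the titles, with 3 females and 3 males of each genotype. Every ETAQ+/- mouse still carries a normal Gars allele, and counts per gene do not tell the alleles apart. The labels number the mice and say nothing more of how they relate. The whole cord was used, so in these bulk samples fewer cells of a type and less RNA per cell cannot be told apart.

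Gars encodes glycyl-tRNA synthetase, which joins glycine to its tRNA for protein synthesis, and the same gene supplies the enzyme of the cytosol and of mitochondria. In people, dominant GARS variants underlie a form of Charcot-Marie-Tooth disease, and mutant forms of the enzyme have been reported to hold on to glycine tRNA and leave ribosomes waiting at glycine codons. A ribosome that waits too long is met by the one behind it. Collided ribosomes are recognised by EDF1 and by ZNF598, the ubiquitin ligase that mouse Zfp598 encodes, while PELO with its GTPase partner HBS1L splits ribosomes that sit on an mRNA without a tRNA in the decoding site. GTPBP1 and GTPBP2 are GTPases related to HBS1L. In C57BL/6J mice, which carry a variant in a brain-expressed arginine tRNA gene, loss of Gtpbp2 leads to neurodegeneration with stalled ribosomes.

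The stretch of Gars that the allele is named for was read from the reference transcript, to show where in the enzyme's message the deleted residues lie. The letters of the allele name are encoded once, in frame, by codons 289 to 292 of the 728 codons of the GENCODE M21 coding sequence. They lie in exon 8 of 17, on the plus strand at chr6:55060922-55060933 (GRCm38). The reference sequence is given 5′ to 3′ with 30 bases on either side, and the 12 capital letters mark the codons of the named residues. The bases before them run from exon 7 into exon 8. The exact breakpoints of the engineered allele are not given in the sources used here.
Gars codons 289 to 292: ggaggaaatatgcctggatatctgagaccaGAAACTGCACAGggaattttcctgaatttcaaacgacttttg

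Library totals ranged from 23595944 to 41452700 expected counts (fragments assigned to genes by RSEM, not normalised). The libraries fell into mice 1 to 6 and mice 7 to 12, numbers taken from the titles, and the labels give no batch. The labels name 2 library kits, KAPA Stranded mRNA-Seq and KAPA mRNA HyperPrep, without saying which libraries each was used for, so kit and set could not be compared. Each set held 3 mice of each genotype, while all WT males were in the first set and all WT females in the second. Values called normalised CPM are counts scaled to library size with the TMM factors of edgeR. Summed levels of 4 haemoglobin genes were 1862 to 3459 CPM in mice 1 to 6 and 141 to 264 CPM in mice 7 to 12, and those of 3 Schwann cell genes were 169 to 459.6 CPM in mice 1 to 6 and 1.196 to 6.95 CPM in mice 7 to 12. Markers of the cord were abundant in all 12 libraries: 5 neuronal genes summed to 2926 to 3302 CPM and 5 glial genes to 24240 to 34000 CPM. Of those neuronal markers only Chat, the acetylcholine-synthesising enzyme of motor neurons, was called. It was lower in ETAQ+/-, at 14.3 to 17.3 CPM in ETAQ+/- and 23.5 to 26.6 CPM in WT (log2 fold change -0.64, edgeR adjusted p = 2.6e-06). Slc6a5, Slc32a1 and Slc17a6 were at log2 fold changes of 0.06, 0.03 and 0.02, and Snap25 was at -0.11 (adjusted p = 0.0836).

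Gars (ENSMUSG00000029777) rose in ETAQ+/- cords by a small amount, and it was the 1 gene of the 7 to pass the test. It stood at 136 to 151 normalised CPM in the 6 ETAQ+/- mice with a median of 146, against 119.7 to 133 with a median of 128 in the 6 WT mice. Every ETAQ+/- mouse was above every WT mouse. The means were 145 ± 5.79 in ETAQ+/- and 127 ± 4.95 in WT (SD, n = 6 each), which is a log2 difference of 0.19 ± 0.03 (SE; edgeR adjusted p = 0.00408). As a change in percent this was 14.0, with a 95% interval of 8.70 to 19.5. Over all genes tested 1.92% were called, with 0.582% higher and 1.34% lower in ETAQ+/-. The genotypes did not overlap for 2.01% of all genes, 0.657% with ETAQ+/- higher and 1.35% with ETAQ+/- lower. By p, Gars was 146th of the 17189 genes. On the log2(TPM + 1) scale with limma its difference was 0.23 with an adjusted p of 0.0664, which misses the threshold. With the set of mice as a covariate, a fit in which 2.71% of all genes were called, Gars was called and the other 6 were not.

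The higher level of Gars was of like size in females and males and in either set of mice. In females the means were 147 ± 4.72 in ETAQ+/- and 129.6 ± 2.80 in WT (SD, n = 3 each), and in males 143 ± 6.82 in ETAQ+/- and 125 ± 5.95 in WT. The log2 fold changes were 0.18 ± 0.05 in females and 0.19 ± 0.05 in males, neither past the threshold on its own (edgeR adjusted p = 0.135 and 0.105, where 0.739% and 0.669% of genes were called). With DESeq2 both passed (adjusted p = 0.0229 in females and 0.0113 in males), where that tool called 1.33% and 1.4% of genes. The difference of the sexes was 0.01 ± 0.07 (edgeR adjusted p = 0.992), in a test that called 0 of 17189 genes in edgeR and 0 in DESeq2, beside 852 (4.96%) at an unadjusted p under 0.05 in edgeR. Split by set, the genotype effect was 0.18 ± 0.05 in mice 1 to 6 and 0.20 ± 0.05 in mice 7 to 12, again short of the threshold (edgeR adjusted p = 0.146 and 0.0871). The difference between the sets was -0.01 ± 0.07 (edgeR adjusted p = 0.999). All WT males were in mice 1 to 6 and all WT females in mice 7 to 12. The splits by sex and by set therefore share the same WT groups and are not independent checks.

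**Figure D1:**
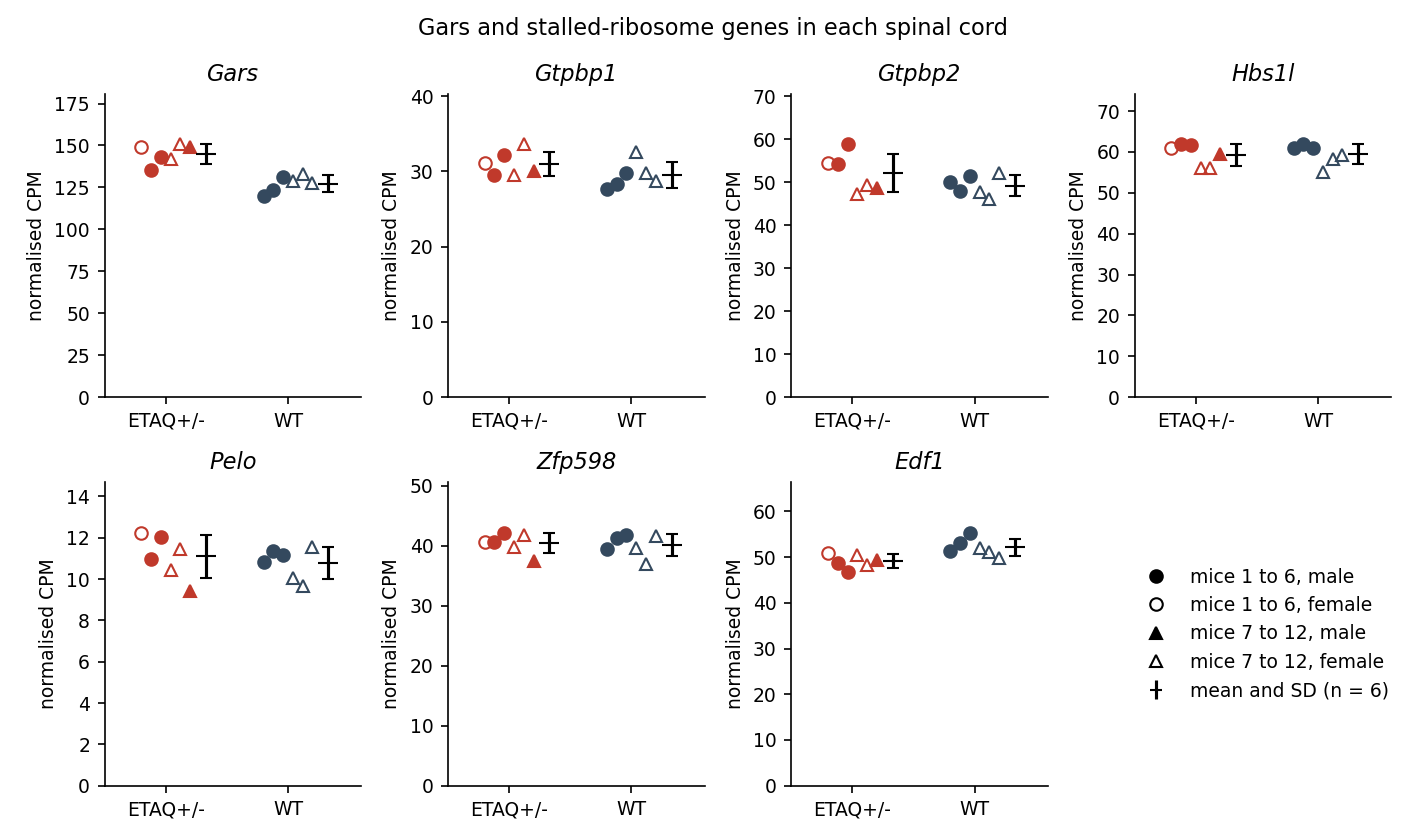
Normalised CPM (linear axis from 0) of the 7 genes in each mouse, ETAQ+/- left and WT right; circles are mice 1 to 6, triangles mice 7 to 12, filled points males, open points females, and bars the mean and SD over 6 mice. For Gars the lowest ETAQ+/- mouse, at 136, is above the highest WT mouse, at 133, while the genotypes overlap for the other 6 genes.

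All of the Gars counts were whole numbers, between 3163 and 5396 per library, and the gene has 1 transcript in the deposited tables. None of its 75-base sequences (the read length) occurs in another gene of GENCODE M21. The gene lies at chr6:55038007-55079500 on the plus strand, and no exon of another gene overlaps its own.

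The promoter of Gars is shown because Gars was the gene that passed. It was searched for TGATGNAA, letters of the composite element at which ATF4, a stress-induced factor known to act on many synthetase genes, binds with a C/EBP partner. The RefSeq promoter of Gars (GRCm38.p6, chr6:55037751-55038050, plus strand), 250 bases before to 50 bases after the gene start, held 1 match, on the minus strand, beginning 30 bases before the start. It is given 5′ to 3′ with the match in capitals, where it reads TTTCATCA on the plus strand.
Gars promoter: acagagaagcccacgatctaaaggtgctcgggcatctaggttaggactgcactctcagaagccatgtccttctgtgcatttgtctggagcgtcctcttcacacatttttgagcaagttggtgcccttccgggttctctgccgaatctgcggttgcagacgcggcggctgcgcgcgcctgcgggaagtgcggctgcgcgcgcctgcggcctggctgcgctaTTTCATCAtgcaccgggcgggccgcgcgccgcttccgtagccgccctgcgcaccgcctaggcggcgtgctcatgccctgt
TGATGNAA, searched on both strands, occurred in 3.97% of 32851 RefSeq promoters of the same length and in 2.36% of the 15226 promoters of tested genes. All 7 genes matched a promoter by symbol, and the other 6 windows held no match. A match of letters is a description and does not show that a factor binds there.

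In a mixed background, alleles of genes near the edited locus travel with it, so the neighbours of Gars were examined. Of 24 tested genes within 2 Mb, 1 was called, which is 4.17%. This was Tril, an accessory protein of Toll-like receptor signalling, at a log2 fold change of -0.13 ± 0.03 (edgeR adjusted p = 0.0442). Within 10 Mb, 2 of 113 genes were called, or 1.77%, against 1.92% over all genes tested. The second was Sspo, which encodes the SCO-spondin glycoprotein, at 0.75 ± 0.13 (adjusted p = 0.00641), 6.54 Mb from Gars. The nearest tested neighbours, Crhr2, a receptor of corticotropin-releasing peptides, and Ggct, an enzyme of glutathione turnover, were at 0.21 ± 0.20 and -0.05 ± 0.05 and were not called (adjusted p = 0.794 and 0.805). For genes near the locus, an effect of linked strain alleles and one of the mutation cannot be told apart.

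**Figure D2:**
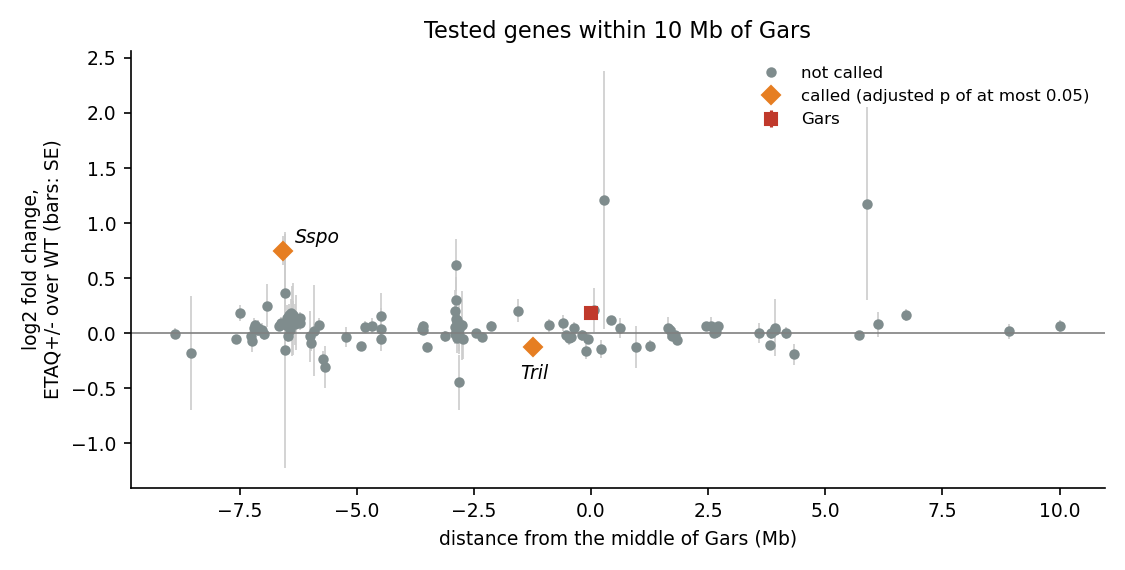
Log2 fold change (ETAQ+/- over WT, bars SE) of the 113 tested genes within 10 Mb of Gars against distance from the middle of Gars in Mb. Tril and Sspo are the 2 genes called; Gars, the square at 0, is at 0.19.

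Gtpbp1 and Gtpbp2, the GTPases related to HBS1L, stood slightly higher on average in ETAQ+/- and did not pass. Gtpbp1 (ENSMUSG00000042535, chr15:79690845-79721479, plus strand) was at 29.5 to 33.6 normalised CPM in ETAQ+/- mice with a median of 30.6, and at 27.6 to 32.55 in WT mice with a median of 29.25. The genotypes overlapped over most of their range. Its log2 fold change was 0.07 ± 0.05 (edgeR adjusted p = 0.633), a change of 5.23% with a 95% interval of -1.64% to 12.6%. Gtpbp1 has 1 transcript in the tables, and 5.33% of its 75-base sequences occur in Gm26884, a non-coding gene on the opposite strand that held between 1.04 and 10.4 counts per library. With a share above 5% its counts are treated as uncertain.

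Gtpbp2 (ENSMUSG00000023952, chr17:46161032-46169370, plus strand) was at 47.2 to 58.8 normalised CPM in ETAQ+/- mice with a median of 51.7, and at 46.03 to 52.2 in WT mice with a median of 48.9. The log2 fold change of 0.08 ± 0.05 (edgeR adjusted p = 0.630) came with an interval of -1.77% to 14.1%. The 3 ETAQ+/- mice of mice 1 to 6 were at 54.2 to 58.8 and the 3 of mice 7 to 12 at 47.2 to 49.2. WT mice were at 47.9 to 51.4 and 46.03 to 52.2 in the same sets. The share of all genes for which 3 mice and 3 mice do not overlap in this way was not computed. The genotype effect was 0.18 ± 0.06 within mice 1 to 6 (edgeR adjusted p = 0.269) and -0.02 ± 0.06 within mice 7 to 12 (adjusted p = 0.955). The difference of these effects was 0.20 ± 0.08, with an unadjusted p of 0.0336 and an edgeR adjusted p of 0.995. Over all genes this difference was called for 0 of 17189 by edgeR, the 1 tool run on it, with 683 at an unadjusted p under 0.05. Blood and Schwann cell markers, as given above, were higher in mice 1 to 6, and their part in the values of Gtpbp2 was not tested.

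Gtpbp2 is also the gene of the 7 with the most complex annotation, with 17 transcripts in the tables. The length that the authors' software gives per gene and library is a mean over transcripts weighted by their estimated abundance, and it moves with the transcript mix. For Gtpbp2 it was 1486 to 1685 bases in ETAQ+/- mice (mean 1591 ± 66.9, SD, n = 6) and 1458 to 1652 bases in WT mice (1572 ± 76.0, n = 6). The longest transcript of Gtpbp2 in GENCODE M21 measures 2966 bases, so the mean lay well below it in every library. The ranges overlapped and the difference did not pass (limma log2 difference 0.02 ± 0.04, adjusted p = 1), in a test that called 3 of 10903 genes with a varying length, or 0.0275%, with 4.73% at an unadjusted p under 0.05.

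Hbs1l and Pelo, the partners that split stalled ribosomes, did not pass the test, and the interval for Hbs1l was the narrowest of the 7. Hbs1l (ENSMUSG00000019977, chr10:21295979-21368898, plus strand) was at 55.97 to 61.85 normalised CPM in ETAQ+/- mice with a median of 60.2, and at 55.2 to 61.9 in WT mice with a median of 60.1. The ranges of the genotypes nearly coincided. Hbs1l was at 60.9 to 61.9 in all of mice 1 to 6 and at 55.2 to 59.5 in all of mice 7 to 12. The share of all genes whose sets do not overlap in this way was not computed. With sex and genotype in the fit, the difference of the sets was 0.07 ± 0.04 and was not called (edgeR adjusted p = 0.278). That fit called 7.89% of all genes. The change of Hbs1l with genotype was -0.186% with a 95% interval of -4.57% to 4.40% (edgeR adjusted p = 0.989). Its transcript length stayed between 2787 and 2790 bases in all 12 mice, with 2 transcripts in the tables (limma adjusted p = 1). Hbs1l is uncertain to the extent that 39.0% of its 75-base sequences also occur in other genes, mainly the processed pseudogene Gm9923, to which the authors' tables gave 0 to 33.2 counts per library beside 1443 to 2501 for Hbs1l.

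Pelo (ENSMUSG00000042275) was the least abundant of the 7, with 256 to 460.0 counts per library. It was at 9.44 to 12.25 normalised CPM in ETAQ+/- mice with a median of 11.2, and at 9.67 to 11.6 in WT mice with a median of 11.01. The ETAQ+/- mice reached both lower and higher than the WT mice. The change was 3.13% with a wide interval of -7.24% to 14.7% (edgeR adjusted p = 0.897). Pelo lies inside Itga1 on chromosome 13, on the same strand, at chr13:115088355-115090186 (minus). In GENCODE M21, 46.2% of its exon bases also belong to Gm49395 on the same strand and 29.3% lie opposite exons of Gm10734, and 56.1% of its 75-base sequences are shared with these. Neither gene was analysed here, and reads from them cannot be told apart from Pelo in these counts, which are uncertain for that reason.

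Per length, Hbs1l was more abundant than Pelo in every mouse, and the ratio of the partners differed between genotypes by less than its spread. The TPM of Hbs1l divided by that of Pelo was 2.88 ± 0.285 in ETAQ+/- mice and 2.96 ± 0.160 in WT mice (SD, n = 6 each). Gtpbp2 stood over Gtpbp1 by 3.94 ± 0.457 in ETAQ+/- and 3.97 ± 0.371 in WT. That ratio depends on the mean length of Gtpbp2 over its 17 transcripts, 1591 bases in ETAQ+/- and 1572 in WT, against 3398 bases for Gtpbp1. In normalised CPM, not divided by length, the means of Gtpbp2 and Gtpbp1 were 52.1 and 31.0 in ETAQ+/- and 49.2 and 29.5 in WT.

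The collision sensors Zfp598 and Edf1 did not pass the test either. Zfp598 (ENSMUSG00000041130, chr17:24669687-24682016, plus strand) was at 37.5 to 42.2 normalised CPM in ETAQ+/- mice with a median of 40.65, and at 36.9 to 41.8 in WT mice with a median of 40.5. The genotypes overlapped nearly in full. The change was 0.736% with an interval of -5.13% to 6.97% (edgeR adjusted p = 0.966). Its single transcript shares no 75-base sequence with another gene, and its counts were whole numbers.

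Edf1 (ENSMUSG00000015092, chr2:25557847-25562082, plus strand) was at 46.8 to 50.9 normalised CPM in ETAQ+/- mice with a median of 49.1, and at 49.8 to 55.4 in WT mice with a median of 51.7. The 4 lowest ETAQ+/- mice were below every WT mouse. The log2 fold change was -0.09 ± 0.03, with an unadjusted p of 0.0204 and an edgeR adjusted p of 0.311. The change of -5.81% had an unadjusted interval of -10.3% to -1.07%. Gars and Edf1 were the 2 of 7 genes at an unadjusted p under 0.05, a level that 10.9% of all genes tested reached, 4.53% higher and 6.36% lower in ETAQ+/-. The log2 fold change of Edf1 was -0.14 ± 0.05 within mice 1 to 6 (edgeR adjusted p = 0.337) and -0.03 ± 0.05 within mice 7 to 12 (adjusted p = 0.890). These effects did not pass a test of their difference (adjusted p = 0.995). Of the 75-base sequences of Edf1, 5.79% occur in the pseudogene Gm11964, which held 0 counts in every library. Its share is above 5%, so its counts too are treated as uncertain.

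**Figure D3:**
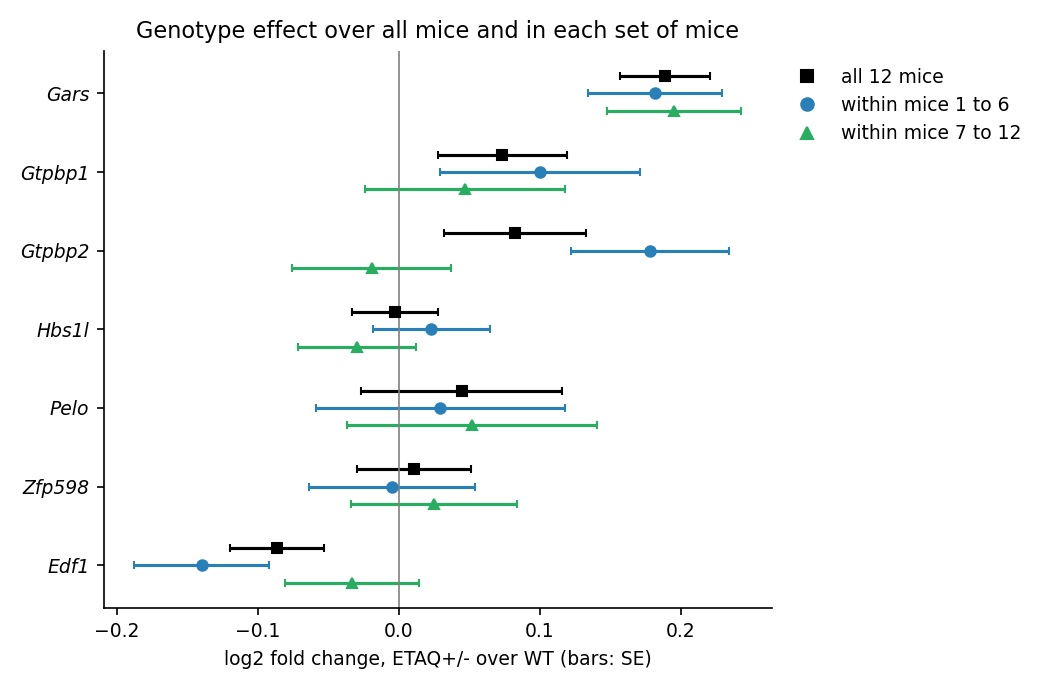
Log2 fold change of each gene (ETAQ+/- over WT, bars SE) over all 12 mice (squares), within mice 1 to 6 (circles) and within mice 7 to 12 (triangles). The 3 estimates for Gars lie between 0.18 and 0.20, while those for Gtpbp2 are 0.18 within mice 1 to 6 and -0.02 within mice 7 to 12.

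For none of the 6 rescue genes did the difference between the sexes pass the edgeR test. The widest gap was that of Pelo, at 0.13 ± 0.10 in females and -0.04 ± 0.10 in males, with a difference of -0.17 ± 0.14 (edgeR adjusted p = 0.913). Edf1 was at -0.03 ± 0.04 in females and -0.14 ± 0.04 in males (difference -0.11 ± 0.06, adjusted p = 0.901). With the set of mice as a covariate, the difference of Pelo was -0.02 ± 0.13, that of Edf1 -0.11 ± 0.07, and the widest was that of Gtpbp2 at 0.20 ± 0.08, none of them called (edgeR adjusted p = 0.999, 0.995 and 0.995). All WT males were in mice 1 to 6 and all WT females in mice 7 to 12, so this contrast takes the same values as the difference between the sets. A genotype effect that differs by sex and one that differs by set therefore cannot be told apart.

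The sets of mice themselves were compared with sex and genotype in the edgeR fit, which called 7.89% of all genes and 0 of these 7, with 2 of the 7 at an unadjusted p under 0.05. Pelo had the smallest p, at 0.23 ± 0.08 higher in mice 1 to 6 on the log2 scale (unadjusted p = 0.00924, edgeR adjusted p = 0.0842). Gtpbp2 followed at 0.14 ± 0.06 (unadjusted p = 0.0313, adjusted p = 0.175), and Gars was at -0.03 ± 0.04 (adjusted p = 0.715).

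As levels per length, the 7 genes kept the same order in all 12 mice. Edf1 was highest, at 171 ± 9.70 TPM in ETAQ+/- and 177 ± 8.97 TPM in WT, which is above 95.8% of the genes tested. Next was Gars at 115 ± 8.61 TPM in ETAQ+/- and 97.8 ± 6.76 TPM in WT. Then came Gtpbp2 (65.6 ± 6.33 and 61.2 ± 5.50 TPM), Hbs1l (39.6 ± 1.28 and 38.5 ± 1.88 TPM), Zfp598 (22.6 ± 1.12 and 21.8 ± 1.40 TPM), Gtpbp1 (16.7 ± 1.30 and 15.4 ± 1.36 TPM) and Pelo (13.9 ± 1.34 and 13.1 ± 1.02 TPM), each with ETAQ+/- first and n = 6 per genotype. Each gene was above the next in 12 of 12 mice. The place of Gtpbp2 above Hbs1l depends on its mean length over transcripts. In normalised CPM the mean of Gtpbp2 was 52.1 and that of Hbs1l 59.3 in ETAQ+/-, and 49.2 and 59.4 in WT. Only for Gtpbp1 and Pelo did the ranges over mice overlap, from 13.3 to 18.8 TPM for Gtpbp1 and from 11.98 to 15.4 TPM for Pelo. With Gars higher in ETAQ+/-, Edf1 stood over Gars by 1.495 ± 0.0722 in ETAQ+/- and by 1.81 ± 0.0724 in WT.

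**Figure D4:**
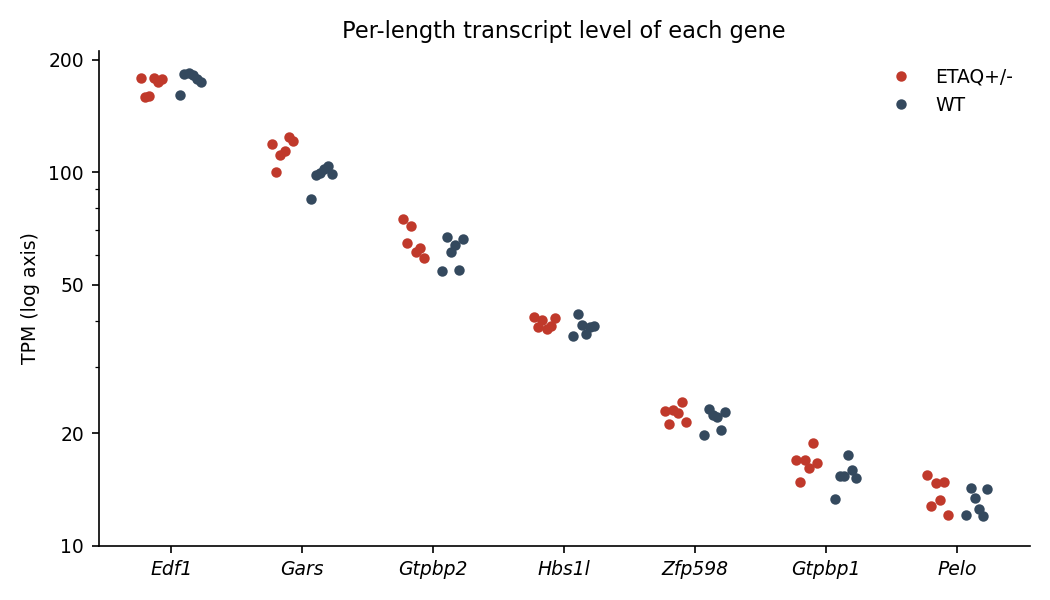
TPM of each gene in each mouse on a log axis, ETAQ+/- left of WT, genes ordered by mean level. The order runs from Edf1, between 158 and 184 TPM, to Pelo, between 11.98 and 15.4 TPM, with Gars between 84.7 and 123.9 TPM.

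The share of glycine codons, which glycyl-tRNA serves, was counted in the longest coding sequence of each gene. It was 9.45% of 667 codons for Gtpbp1 and 9.45% of 603 codons for Gtpbp2, above 90.1% of the 15332 genes with a coding sequence. Hbs1l had 8.26% of 678 codons, Edf1 8.16% of 147, Zfp598 7.41% of 904, Gars 5.63% of 728 and Pelo 4.17% of 384. The median over all these genes was 6.31%, so 5 of the 7 genes were above it and Gars and Pelo below it.

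Among other genes of ribosome stalling, edgeR called 0 of 46 tested, against 1.92% of all genes. At an unadjusted p under 0.05 were 4 of the 46, a level reached by 10.9% of all genes. DESeq2 called 2 of the 46, Gcn1 and Vcp, against 2.94% of all genes, and limma-voom called 0, against 1.89%. The median log2 fold change of the 46 genes was -0.01, against 0.00428 over all genes tested, and single values ran from -0.12 to 0.10. In the list of collision sensing and subunit splitting, 0 of 13 passed, with a median of 0.0066. Its smallest p belonged to Gcn1, whose product binds collided ribosomes and activates the stress kinase GCN2, at 87.1 to 97.4 normalised CPM in ETAQ+/- and 83.4 to 93.1 in WT (log2 fold change 0.10 ± 0.03, edgeR adjusted p = 0.125). Gigyf2, which acts with EDF1 to block initiation on the stalled message, came next at -0.08 ± 0.03 (adjusted p = 0.359).

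In the list of nascent chain quality control, 0 of 10 passed, with a median of 0.00325. Vcp, the ATPase that pulls stalled chains out of the large subunit, was at 342 to 361 normalised CPM in ETAQ+/- and 365 to 407 in WT, without overlap (log2 fold change -0.12 ± 0.03, edgeR adjusted p = 0.0859). Over all genes tested, 1.35% lay lower in ETAQ+/- without overlap. With the set of mice as a covariate the edgeR adjusted p of Vcp was 0.0418. It was the 1 gene of the 46 called in that fit, against 2.71% of all genes. Of the 75-base sequences of Vcp, 39.9% also occur in other genes, mainly Vcp-rs, so it is uncertain. Nploc4, which encodes a cofactor of VCP, was at -0.07 ± 0.03 (adjusted p = 0.498).

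In the list of termination, recycling and related GTPases, 0 of 9 passed and 0 were at an unadjusted p under 0.05, with a median of -0.04. The smallest p belonged to Zc3h15, the partner of the GTPase DRG1, at -0.05 ± 0.03 (edgeR adjusted p = 0.565), and to Abce1, the ATPase that recycles ribosomes after PELO has acted, at -0.05 ± 0.04 (adjusted p = 0.709). Of 14 tested genes for the decay of stalled mRNA, 0 passed, with a median of 0.00154. Here the exosome subunit gene Exosc8 was at 0.08 ± 0.06 and the exosome nuclease gene Dis3 at 0.08 ± 0.06 (edgeR adjusted p = 0.717 and 0.728).

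**Figure D5:**
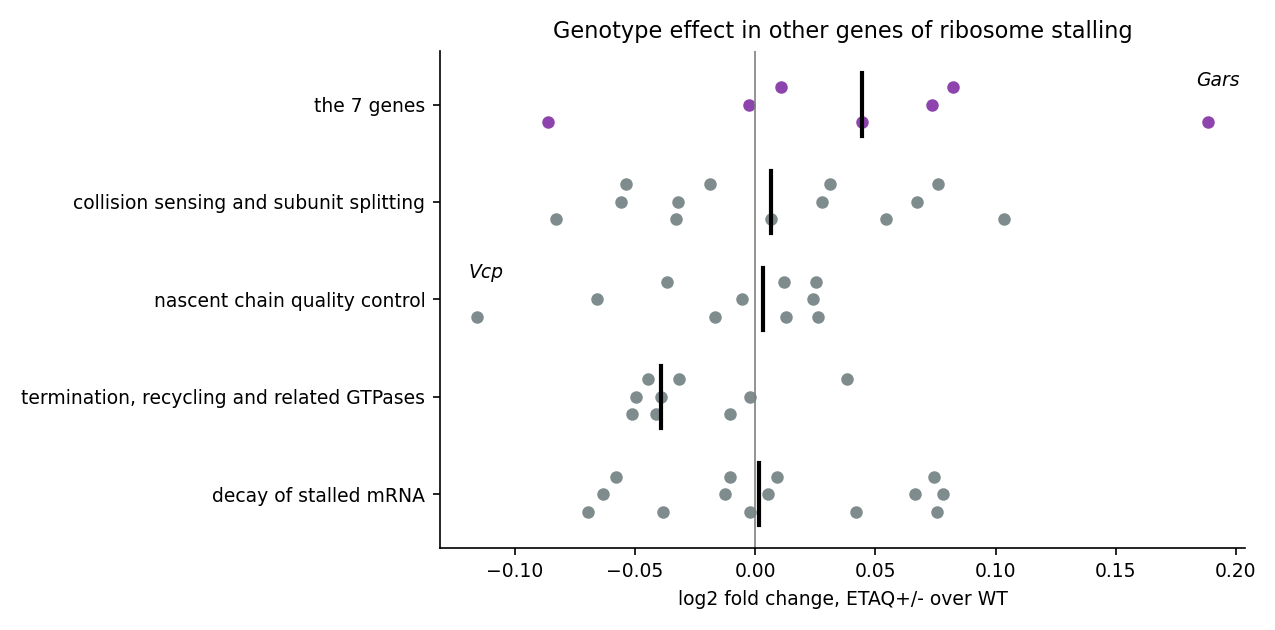
Log2 fold change (ETAQ+/- over WT) of the 7 genes and of the 46 tested genes in 4 lists of ribosome stalling; each point is a gene and the black bar the median. Gars at 0.19 lies outside the range of the listed genes, -0.12 to 0.10.

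The tested genes most like Gars over the 12 mice were sought by the root mean squared difference of standardised log2 CPM, among 10263 other genes with a mean of at least 10 CPM. The nearest was Eif3c, a subunit of the initiation factor eIF3, at 0.348, followed by Cacng3, an AMPA receptor auxiliary subunit (0.350), Wars, the tryptophanyl-tRNA synthetase (0.371), the unnamed gene Gm3411 (0.390) and Rab36, a small GTPase (0.391). For comparison, Gtpbp1 was at 0.786 and Gtpbp2 at 1.175 from Gars. All 5 of the nearest genes were called higher in ETAQ+/-, a direction that choosing them by likeness to Gars favours. Of the 7 genes among themselves, Pelo and Zfp598 were the closest pair, at 0.485. Eif3c was at 196 ± 6.02 normalised CPM in ETAQ+/- and 179 ± 8.42 in WT, and Wars at 120.0 ± 4.05 in ETAQ+/- and 108 ± 3.68 in WT (SD, n = 6 each). Cacng3 was at 17.8 ± 1.13 in ETAQ+/- and 14.8 ± 1.25 in WT, and Rab36 at 26.9 ± 1.34 in ETAQ+/- and 23.9 ± 0.966 in WT. Gm3411 was at 27.3 ± 1.15 in ETAQ+/- and 13.45 ± 2.10 in WT, and its counts are uncertain because other genes hold 77.3% of its 75-base sequences.

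Markers of neighbouring tissue were read beside the Gars result. Of 4 sensory ganglion markers, which sum to 1.47 to 7.43 CPM in ETAQ+/- and 0.369 to 0.752 CPM in WT, Avil was the 1 tested and was higher in ETAQ+/-. It stood at 1.34 to 4.03 CPM in ETAQ+/- and 0.154 to 0.645 CPM in WT. Over all genes tested, 0.582% were called higher in ETAQ+/-, and 0.657% lay higher there without overlap. The genotypes overlapped for Trpv1, at 0.0857 to 0.444 CPM in ETAQ+/- and 0.0678 to 0.184 CPM in WT. They also overlapped for Scn10a, at 0 to 2.66 CPM in ETAQ+/- and 0 to 0.0678 CPM in WT. Mrgprd was at 0 in 10 libraries and Scn10a at 0 in 4. The markers of red cells, muscle, marrow neutrophils and Schwann cells held no called gene of 15 tested by genotype. The part of ganglion RNA in the Gars values was not tested.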

How the data were processed

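Spinal cord polyA RNA of 12 mice was sequenced as 75 bp paired reads, per the labels' protocols. The tools named were Bowtie2 2.2.0 and RSEM 1.2.12, per the submitters' processing notes; for build, annotation and strand setting, none is given in the sources used here. Each deposited table of the authors holds an expected count (not normalised), TPM and FPKM (scaled for length and depth) and a length in bases per gene and library, per the file headers. FPKM was not used. Of the expected counts, 15.4% were not whole.

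Expected counts were rounded and filtered with filterByExpr over the 4 genotype-by-sex groups. They were scaled by TMM (factors 0.975 to 1.02) and tested with edgeR 4.0.16 (robust quasi-likelihood, sex as a covariate) in R 4.3.3. The effect within each sex came from a fit of the 4 groups. Transcript length was tested with limma 3.58.1, and DESeq2 1.42.0 was an alternative. All tests are two-sided, adjusted p values are Benjamini-Hochberg values over all genes tested, and the threshold is 0.05. The SE is |log2 fold change| over the root of F. The 95% intervals use the t distribution of the same fit and are not adjusted.

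Positions, exon overlaps, coding sequences and shared 75-base sequences came from GENCODE M21 (GRCm38), which matched 96.6% of the IDs and may differ from the authors' annotation: of the genes with 1 transcript, 75.9% had the same transcript length. Genes sharing at least 5% of their 75-base sequences were called uncertain. Promoters came from RefSeq (GRCm38.p6). All intervals are for the mean genotype effect. Their width rests on the spread between these mice, and they are not ranges of single mice. The labels number mice separately, so each is taken as 1 animal, and no 2 libraries held identical counts.

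The members, lists and tests were chosen with earlier results of these data known. Named genes were the 7 members, any called gene of each list or else the 2 with the smallest p, the 5 genes most like Gars, and called genes within 2 Mb of Gars. Sspo, Crhr2 and Ggct were chosen after their values were seen. Exosc6 matched no row and was not analysed here. The fits were tested on simulated data. Alternatives were other tools, filters, scalings, units, covariates, sets of mice, and leaving out each mouse.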

Additional observations from a re-analysis of the deposited data

Results flagged for a closer look

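In WT mice, 1 value of Gars lay apart from the others on the TPM scale: mouse 2 was at 84.7 TPM, and the next lowest WT mouse at 98.2 TPM, a gap of 0.697 of the range of 6 mice. In normalised CPM the same mouse was the lowest at 119.7 but did not stand apart in this way. The low TPM was not particular to Gars. Mouse 2 was also the lowest WT mouse in TPM for Gtpbp1 (13.3), Gtpbp2 (54.2), Hbs1l (36.4), Zfp598 (19.75) and Edf1 (160.6). For Pelo it was at 12.1, above mouse 10 at 11.98. Its library had the highest mitochondrial share of the 12, at 11.1% of expected counts, and the part of this in the TPM values was not tested.

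The transcript length of Edf1 had 1 low mouse in each genotype. Mouse 11 was at 720.9 bases among ETAQ+/- mice, where the next was at 724.7, and mouse 3 at 720.7 bases among WT mice, where the next was also at 724.7. Of 34 groups of 6 mice examined in this way, 3 had such a value, and chance gives about 5% of groups.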

How the results depend on the processing

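Gars kept its direction in all 12 alternative settings and in all 12 fits without 1 mouse. It stayed past the threshold in 6 of the settings and in each fit without a mouse (0.17 to 0.21 on the log2 scale, adjusted p 0.00302 to 0.0160). It missed the threshold within mice 1 to 6 (0.18, adjusted p = 0.146), within mice 7 to 12 (0.20, adjusted p = 0.0871), on log2(TPM + 1) (0.23, adjusted p = 0.0664) and log2(TPM + 0.1) (0.23, adjusted p = 0.0653), and in separate fits of mice 1 to 6 (0.16, adjusted p = 0.482) and mice 7 to 12 (0.17, adjusted p = 0.189), which were chosen after seeing the data. The within-set fits rest on 3 mice a genotype, and only the ETAQ+/- mice inform their sex term. Mouse 1 was the only female of mice 1 to 6, and mouse 11 the only male of mice 7 to 12. In the separate fits the sex term takes up these mice. The genotype effect there compares mice 5 and 6, or mice 8 and 9, with the 3 WT mice of the set. For TPM the cause was not tested. None of the other 6 genes passed in any of these settings.

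The count of genes called was 330 in the design used (100 higher and 230 lower in ETAQ+/-, 30.3% higher), 506 with DESeq2, 138 within mice 1 to 6, 161 within mice 7 to 12, 162 on log2(TPM + 1) with 46.9% higher, 160 on log2(TPM + 0.1) with 45.6% higher, 92 in mice 1 to 6 alone with 53.3% higher and 112 in mice 7 to 12 alone. With library totals and no TMM it was 296, with 45.3% higher. Without 1 mouse it was 236 to 315. By sex, DESeq2 called 228 genes in females and 241 in males, and edgeR without 1 mouse 69 to 136 in females and 67 to 127 in males. Fits without 1 mouse called 0 to 2 genes for the difference between sexes and 1 to 6 for transcript length.

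Small log2 differences changed sign, all of them short of the threshold. That of Hbs1l was positive with library totals (0.021), within mice 1 to 6 (0.023), on the TPM scales (0.038 and 0.039) and in mice 1 to 6 alone (0.0073). Zfp598 was at -0.0048 within mice 1 to 6, and Gtpbp2 at -0.019 within mice 7 to 12 and -0.013 in mice 7 to 12 alone. With the set of mice as a covariate, females gave -0.019 for Gtpbp2 and -0.030 for Hbs1l, males 0.023 for Hbs1l and 0.030 for Pelo, and the difference of the sexes -0.014 for Gars and 0.053 for Hbs1l. By effective length, Hbs1l was at 0.00033. Without 1 mouse, the ranges that crossed 0 were -0.021 to 0.0069 for Hbs1l and -0.014 to 0.036 for Zfp598 over all mice. In females they were -0.0016 to 0.10 for Gtpbp1, -0.013 to 0.10 for Gtpbp2 and -0.041 to 0.022 for Hbs1l, and in males -0.016 to 0.011 for Hbs1l, -0.13 to 0.050 for Pelo and -0.066 to 0.020 for Zfp598. For the difference of the sexes they were -0.023 to 0.050 for Gars, -0.0050 to 0.099 for Gtpbp1, -0.0022 to 0.13 for Gtpbp2 and -0.028 to 0.035 for Hbs1l. For transcript length they were -0.0013 to 0.0014 for Edf1 and -0.0088 to 0.037 for Gtpbp2. Depth limits Pelo most, at 256 to 460.0 counts per library.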
